A study of Drosophila melanogaster with 5 samples.

Results

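The regions described here are the ChIP-seq peaks of RNA polymerase II (Pol II), Yorkie (Yki) and Scalloped (Sd) that lie on heterochromatic or unplaced sequence of the Drosophila melanogaster genome. They were chosen by chromosome name alone, as every peak on a sequence whose name ends in Het or is U or Uextra in build dm3. Of 24341 peaks in the 3 lists, 338 met this rule: 133 from the 11679 for Yki, 49 from the 2557 for Sd and 156 from the 10105 for Pol II. The other 24003 peaks lie on X, on the euchromatic 2L, 2R, 3L and 3R, or on chromosome 4, and these are together called the arms below.

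All chromatin came from eye discs dissected from third-instar larvae and pooled. The Yki and Sd immunoprecipitations used discs of genotype GMR-Gal4; UAS-Drosophila Yki S168A. The Pol II immunoprecipitation used discs of genotype GMR-Gal4; UAS-Drosophila Yki-V5. Both genotypes overexpress Yki and are labelled as showing ectopic proliferation. GMR-Gal4 drives expression in the posterior eye disc, so a disc mixes cells that do and do not carry the transgene product. S168A removes a phosphorylation site through which Hippo signalling restrains Yki. Antibody and genotype differ together in each comparison with Pol II and cannot be told apart. Each antibody had 1 library, so no spread between replicates exists and no p-value is given. The intervals below are 95% intervals over peaks. They treat peaks as independent and cover counting error only.

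Heterochromatin is the condensed, repeat-rich chromatin around the centromeres and on most of the Y chromosome. In Drosophila it also holds active genes, among them light and rolled, that are transcribed from within repeat-rich surroundings. In dm3 the sequences 2LHet, 2RHet, 3LHet, 3RHet, XHet and YHet hold heterochromatin assigned to a chromosome arm, while U and Uextra string together scaffolds with no assigned place. A distance on U or Uextra is therefore a distance in the file and need not exist in the fly. Yki, the coactivator that Hippo signalling restrains to limit growth, reaches DNA through partner proteins. Sd is its TEAD-family DNA-binding partner. Pol II is found on genes being transcribed and at promoters where it has paused. A read from a repeat can match several places, and how the authors treated such reads is not given in the sources used here. Repeats can thus add, move or hide peaks on these sequences, and their part in the results was not tested.

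The peaks were spread unevenly over the sequences. Uextra held the most, with 48 Yki, 11 Sd and 47 Pol II peaks. It was followed by 2RHet with 20 Yki, 14 Sd and 31 Pol II peaks, and by 3LHet with 24, 12 and 28. U held 18 Yki peaks and 22 Pol II peaks but a single Sd peak. On 3RHet there were 15 Yki, 8 Sd and 17 Pol II peaks, on XHet 5, 1 and 6, and on 2LHet 3, 2 and 4. YHet held 1 Pol II peak, from 305353 to 305574, and 0 Yki and Sd peaks.

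**Figure D1:**
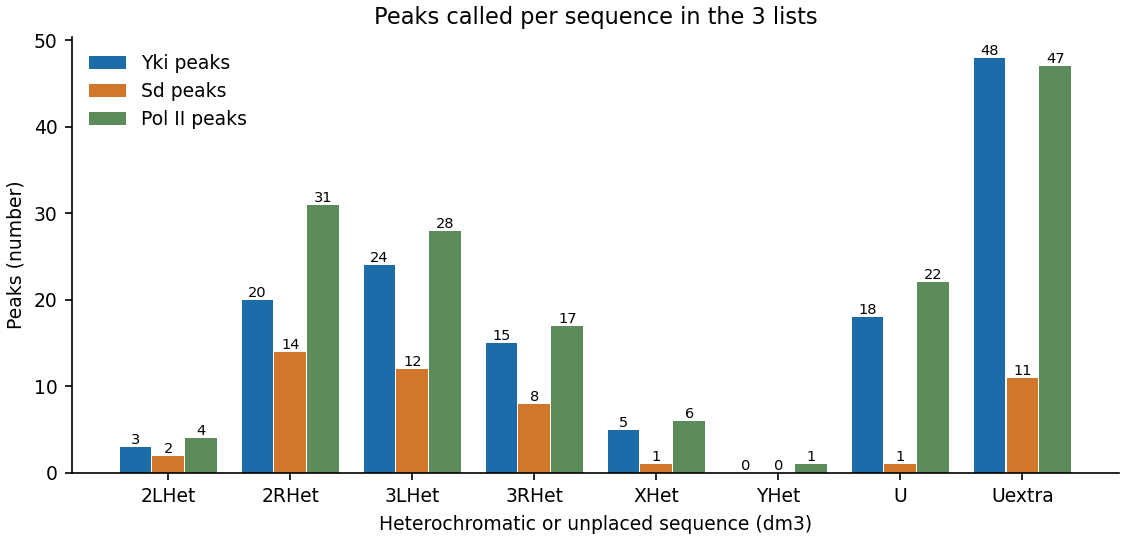
Number of peaks called on each heterochromatic or unplaced sequence, with 1 bar for each list (Yki, Sd and Pol II). Uextra holds the most Yki and Pol II peaks (48 and 47), and 2RHet the most Sd peaks (14); U has 1 Sd peak beside 18 Yki peaks.

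These sequences made up different shares of the lists. The Yki list had 1.14% of its peaks there (0.954 to 1.35), the Sd list 1.92% (1.42 to 2.53) and the Pol II list 1.54% (1.31 to 1.8). On the Het sequences alone Yki had 0.574%, Sd 1.45% and Pol II 0.861%, and the Sd interval (1.02 to 1.99) lay above the Yki interval (0.445 to 0.728). On U and Uextra they were 0.565, 0.469 and 0.683%, with overlapping intervals. There were thus 0.552 Sd peaks per Yki peak on the Het sequences and 0.182 on U and Uextra, against 0.217 on the arms. Pol II peaks numbered 1.30 per Yki peak on the Het sequences and 1.05 on U and Uextra, against 0.862 on the arms. Chromosome 4, counted among the arms, held 0.933% of the Yki list (0.767 to 1.12), 2.07% of the Sd list (1.56 to 2.70) and 1.94% of the Pol II list (1.68 to 2.23). Larger shares of Sd and Pol II than of Yki were thus not particular to the Het sequences.

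Peaks were sparse compared with the arms. Taking the last peak end as the length of a sequence, the Het sequences carried 7.62 Yki, 4.21 Sd and 9.90 Pol II peaks per Mb, and U and Uextra 1.81, 0.330 and 1.90. The arms carried 96.0, 20.8 and 82.7 per Mb. Unique sequence open to read mapping was not measured, so these densities are not corrected for it. Parts of the sequences were empty: the first peak on 3RHet started at 1142670, and all 12 peaks of XHet lay between 50347 and 84936.

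Peak widths differed between the kinds of sequence. Median width was 374 bp for Yki (348 to 403; quartiles 301 and 504), against 403 bp on the arms (398 to 408). The lower Yki median came from U and Uextra (348.5 bp; 310 to 387), as that of the Het sequences was 406 bp (365 to 469). For Sd it was 292 bp (270 to 315; quartiles 240 and 350), against 269 bp on the arms (266 to 272). The Het sequences held the wider Sd peaks, with a median of 310 bp (288 to 350), against 229.5 bp on U and Uextra (217 to 286). For Pol II it was 447.5 bp (391 to 525), against 423 bp on the arms (418 to 429). Pol II peaks too were wider on the Het sequences, with a median of 560 bp (416 to 724), against 361 bp on U and Uextra (322 to 485). Of 156 Pol II peaks 9 were wider than 2 kb, or 5.77% (2.67 to 10.7), against 351 of 9949 or 3.53% on the arms (3.17 to 3.91). On chromosome 4 alone it was 15 of 196, or 7.65% (4.35 to 12.3). Chromosome 4 had median widths of 465 bp for Yki (414 to 487), 285 bp for Sd (264 to 315) and 509.5 bp for Pol II (423 to 574). Wide Pol II peaks were thus not particular to the Het sequences. No Yki peak here was wider than 1066 bp and no Sd peak wider than 579 bp, whereas the widest on the arms measured 4492 and 1452 bp.

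The deposited value of each peak, called the score, behaves as a −log10 p or q value and ranks peaks within 1 list. Ranks are given as percentiles of the whole list, where 100 is the highest. Sd peaks on these sequences ranked high, with a median percentile of 68.5 (52.3 to 78.4), against 49.6 on the arms (47.8 to 51.7). That rank came from the Het sequences, where the median was 73.9 (62.3 to 83.8) and 8 of 37 Sd peaks were in the highest decile of the list. The 12 Sd peaks on U and Uextra had a median percentile of 36.0 (16.1 to 68.5). Yki peaks had a median percentile of 57.3 (46.0 to 67.6), against 49.9 on the arms (49.1 to 50.8). Pol II peaks ranked low, with a median percentile of 38.4 (31.9 to 41.3), against 50.2 on the arms (49.3 to 51.2), and 22 of 156 were in the lowest decile against 4 in the highest. Pol II medians were close on the Het sequences (37.4) and on U and Uextra (38.6). Chromosome 4, a small and largely heterochromatic chromosome counted among the arms, had a median percentile of 26.2 for Pol II (21.3 to 32.8) and of 67.2 for Sd (45.4 to 75.4), so neither the low Pol II rank nor the Sd median was confined to the Het and unplaced sequences.

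**Figure D2:**
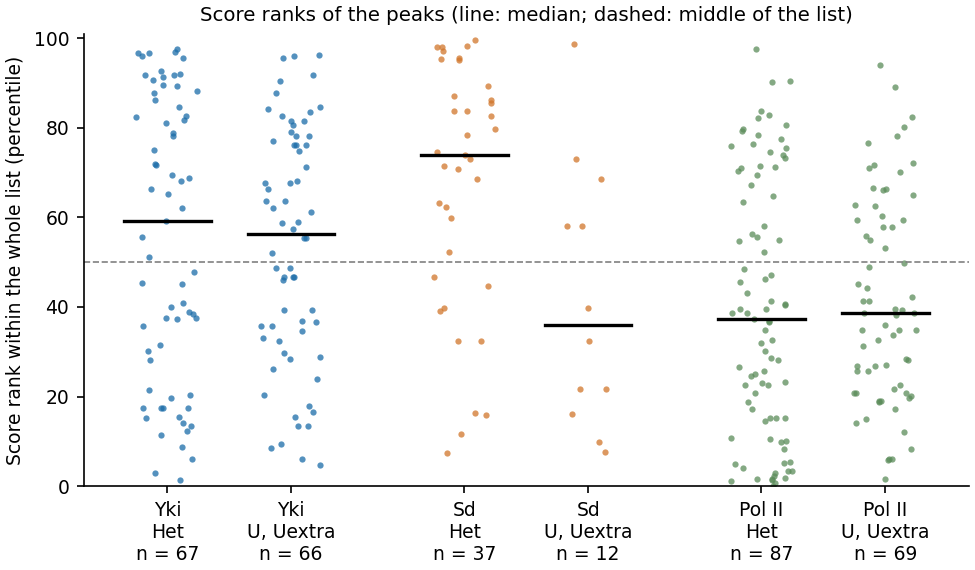
Rank of each peak's score within its whole list (percentile, vertical axis) for Yki, Sd and Pol II peaks, split into Het sequences and U with Uextra; each point is a peak, the black line the median and the dashed line the middle of the list. Sd peaks on Het sequences have a median of 73.9 and those on U and Uextra of 36.0, close to the Pol II medians of 37.4 on Het sequences and 38.6 on U and Uextra.

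Every one of the 49 Sd peaks overlapped a Yki peak by at least 1 bp (100%; 92.7 to 100), beside 97.7% of the whole Sd list and 2450 of 2508 on the arms. Sd peaks without Yki were all on the arms, 4 of them with Pol II and 54 with neither. The difference of 2.31 points from the arms had an interval of -4.98 to 2.98. Between central 200 bp the share was 91.8% here and 75.5% on the arms, and the difference of 16.3 points had an interval above 0 (5.17 to 21.6). In 46 of 49 pairs the Yki peak enclosed the whole Sd peak (93.9%; 83.1 to 98.7), as in 93.4% on the arms. Median distance between their centres was 26 bp (quartiles 15 and 79.5), against 62 bp on the arms. Yki peaks with Sd were narrower here, with a median width of 450 bp against 584 bp on the arms. As a fraction of Yki width, the Sd centre lay a median of 0.435 from the nearer Yki edge, against 0.396 on the arms. The part of Yki width in the centre distances and in the share between central 200 bp was not tested. Of the Yki peaks, 2 held 2 Sd peaks each, on 2RHet from 197906 to 198971 and on 3RHet from 1823380 to 1824240.

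Yki peaks on the Het sequences carried Sd more often than those on the arms. Over all 133 of them, Sd was on 47, or 35.3% (27.3 to 44.1), beside 20.1% of the whole Yki list. The arms had 2298 of 11546, or 19.9% (19.2 to 20.6). The difference was 15.4 points (7.79 to 23.9). It was carried by the Het sequences, where 35 of 67 Yki peaks had Sd, or 52.2% (39.7 to 64.6), against 12 of 66 on U and Uextra, or 18.2% (9.76 to 29.6). The difference between these kinds of sequence was 34.1 points (18.0 to 47.8), and U and Uextra differed from the arms by -1.72 points (-9.22 to 9.27). By sequence, Sd was on 13 of 20 Yki peaks on 2RHet, 12 of 24 on 3LHet, 7 of 15 on 3RHet, 2 of 3 on 2LHet, 1 of 5 on XHet, 11 of 48 on Uextra and 1 of 18 on U.

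The Yki score moves with Sd overlap, so the shares were also set beside arm peaks of like score. Weighted to the score deciles of the 67 Yki peaks on Het sequences, the arms would have Sd on 25.3%, and weighted to their width deciles on 19.5%, against the 52.2% seen. In the highest tercile of Yki score, Sd was on 27 of 30 Yki peaks on Het sequences (90.0%; 73.5 to 97.9), on 8 of 25 on U and Uextra (32.0%; 14.9 to 53.5) and on 1605 of 3833 on the arms (41.9%; 40.3 to 43.5). In the lowest tercile it was on 2 of 20, 0 of 17 and 181 of 3856. Chromosome 4 had Sd on 51 of 109 Yki peaks, or 46.8% (37.2 to 56.6), an interval that overlaps that of the Het sequences.

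**Figure D3:**
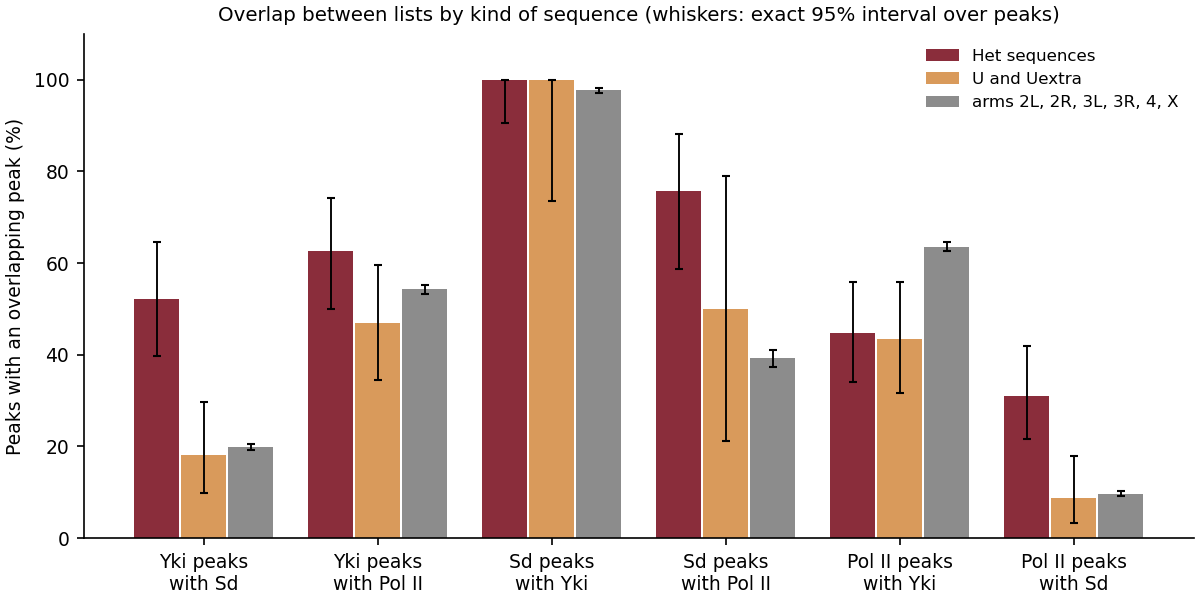
Percent of the peaks of 1 list that overlap a peak of another by at least 1 bp, for Het sequences, U with Uextra, and the arms; whiskers are exact 95% intervals over peaks. Het sequences stand above the arms for Yki peaks with Sd (52.2 against 19.9%), Sd peaks with Pol II (75.7 against 39.2%) and Pol II peaks with Sd (31.0 against 9.72%), and below them for Pol II peaks with Yki (44.8 against 63.6%).

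Sd peaks on these sequences met Pol II more often than Sd peaks on the arms. Pol II overlapped 34 of 49 Sd peaks, or 69.4% (54.6 to 81.7), beside 39.8% of the whole Sd list. The arms had 983 of 2508, or 39.2% (37.3 to 41.1), a difference of 30.2 points (16.1 to 41.5). On the Het sequences Pol II met 28 of 37 Sd peaks (75.7%) and on U and Uextra 6 of 12 (50.0%; 21.1 to 78.9), and the interval of their difference (-3.58 to 52.6) included 0. With each sequence left out in turn the share over all members ran from 62.2%, without 3LHet, to 76.3%, without Uextra. Weighted to the width deciles of the 49 Sd peaks, the arms would have Pol II on 38.8%, and weighted to their score deciles on 38.2%. The difference was not seen between peak centres: when only the central 200 bp of a peak counted, Pol II met 18.4% of Sd peaks here and 18.5% on the arms. Counting a Pol II peak within 1 kb instead gave 77.6% here and 51.7% on the arms. Chromosome 4 alone had Pol II on 29 of 53 Sd peaks (54.7%; 40.4 to 68.4), an interval that overlaps that of the members.

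Pol II overlapped 73 of 133 Yki peaks, or 54.9% (46.0 to 63.5), beside 54.3% of the whole Yki list and 54.2% on the arms (53.3 to 55.2). The difference was 0.643 points (-7.88 to 8.89). The Het sequences had 42 of 67 and U and Uextra 31 of 66, a difference of 15.7 points whose interval (-1.14 to 31.4) includes 0.

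The relation between Sd and Pol II on Yki peaks ran the other way from the arms. Of 47 Yki peaks with Sd, 33 met Pol II (70.2%; 55.1 to 82.7), and of 86 without Sd, 40 did, or 46.5% (35.7 to 57.6), a difference of 23.7 points (6.07 to 38.8). On the arms 46.2% of 2298 Yki peaks that had Sd met Pol II, and 56.2% of 9248 without, a difference of -10.0 points (-12.3 to -7.74). The gap between the differences was 33.7 points (15.9 to 49.0). On the Het sequences Pol II was on 27 of 35 Yki peaks with Sd and on 15 of 32 without (30.3 points; 7.05 to 49.6), whereas on U and Uextra it was on 6 of 12 and 25 of 54 (3.70 points; -24.2 to 31.4).

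The difference was above 0 on 2RHet, 3LHet and 3RHet, at 47.3, 33.3 and 33.9 points, with intervals that include 0 on 3LHet and 3RHet. Without 3LHet it was 18.3 points with an interval of -1.76 to 35.9, and the gap to the arms was still 28.3 points (8.14 to 46.1). With the upper 50% of peaks by score it was 12.0 points (-10.9 to 32.6), beside -21.2 on the arms. With peaks reduced to their central 200 bp it turned to -12.9 points (-26.2 to 3.18), beside -10.7 on the arms. The sign thus differed from that on the arms for whole peaks and for a Pol II peak within 1 kb (27.8 points here, -11.3 on the arms). For whole peaks the interval here included 0 with the upper 50% and without 3LHet. Centres of Yki peaks with Sd and their Pol II peaks lay a median of 360 bp apart (quartiles 201 and 698.5). Central 200 bp meet only where centres are less than 200 bp apart, so that setting cannot judge overlap away from the centres. Chromosome 4 gave 9.06 points (-9.38 to 26.6).

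**Figure D4:**
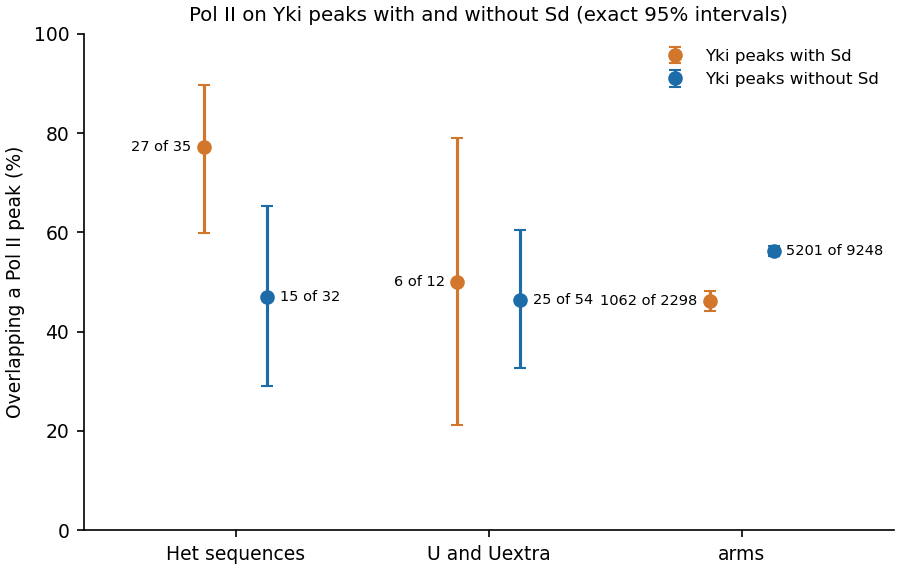
Percent of Yki peaks that overlap a Pol II peak, for Yki peaks with Sd and without Sd, on Het sequences, on U with Uextra and on the arms; whiskers are exact 95% intervals and labels give counts. On Het sequences the peaks with Sd lie above those without (27 of 35 and 15 of 32), and on the arms below them (1062 of 2298 and 5201 of 9248).

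Where all lists met, the Yki peak mostly straddled 1 end of the Pol II peak. Among the 33 pairs of a Yki peak with Sd and a Pol II peak, the Yki peak passed exactly 1 edge of the Pol II peak in 31, or 93.9% (79.8 to 99.3), passed both edges in 1 and lay inside in 1. On the arms the Yki peak passed 1 edge in 69.9% of 1189 such pairs (67.2 to 72.5), both edges in 19.2% and lay inside in 10.9%. The centres of the Yki and Pol II peaks were a median of 460.5 bp apart on the Het sequences and 126 bp on U and Uextra, against 262 bp on the arms. The Pol II peaks that carried both Yki and Sd had a median width of 1167 bp on the Het sequences and 520.5 bp on U and Uextra, against 629 bp on the arms. Width thus moves with the distance between centres, and its part in the offset was not tested. On chromosome 4 such Pol II peaks had a median width of 1332 bp. Yki peaks without Sd lay inside the Pol II peak in 16 of 40 pairs (40.0%; 24.9 to 56.7), against 22.1% of 5731 on the arms (21.0 to 23.2).

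Pol II peaks here carried Yki less often than on the arms, and those on Het sequences carried Sd more often. Yki was on 69 of the 156, or 44.2% (36.3 to 52.4), beside 63.3% of the whole Pol II list and 63.6% on the arms (62.6 to 64.5), a difference of -19.4 points (-27.0 to -11.5). Sd was on 33 of the 156, or 21.2% (15.0 to 28.4), beside 9.9% of the whole list and 9.72% on the arms (9.14 to 10.3), a difference of 11.4 points (5.73 to 18.5). On the Het sequences Sd was on 27 of 87 (31.0%; 21.5 to 41.9) and on U and Uextra on 6 of 69 (8.70%; 3.26 to 18.0), a difference of 22.3 points (9.79 to 33.7). Between the central 200 bp of peaks the Sd share was 5.77% here and 4.65% on the arms, and the interval of the difference (-1.62 to 5.96) included 0. All 33 Pol II peaks with Sd also had Yki, as did 966 of 967 on the arms. Many Pol II peaks here ranked low, and Yki overlap rises with Pol II score: it was 8 of 68 in the lowest tercile of Pol II score, 29 of 55 in the middle and 32 of 33 in the highest. On the arms the same terciles gave 26.8, 71.4 and 92.2%. Weighted to the Pol II score deciles of the peaks here, the arms would have Yki on 55.0%, nearer to the 44.2% seen than the unweighted 63.6%. Among the higher-scoring 50% of the lists, Yki was on 76.4% of 55 Pol II peaks here and on 60.6% on the arms, so the direction of this difference turned. Yki was on 39 of 87 Pol II peaks on the Het sequences and on 30 of 69 on U and Uextra. On chromosome 4 it was on 59 of 196, or 30.1% (23.8 to 37.0), also below the 63.6% of the arms as a whole.

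Joining peaks that shared at least 1 bp gave 216 separate loci on these sequences. Of these, 87 held Pol II alone, 46 Yki alone, 36 Yki and Pol II, 33 all of them and 14 Yki and Sd. Loci with Sd alone or with Sd and Pol II but no Yki numbered 0 of 216, which allows a share of up to 1.69% at the upper exact limit. Such loci were also rare on the arms, where 54 of 14625 held Sd alone (0.369%) and 1 held Sd and Pol II without Yki. The count of 0 thus does not set these sequences apart from the arms. Loci with all lists were 24.1% of 112 on the Het sequences (16.5 to 33.1) and 5.77% of 104 on U and Uextra (2.15 to 12.1), against 7.14% of 14625 on the arms (6.73 to 7.57). Loci with Pol II alone were 40.3% of those here (33.7 to 47.1), against 24.8% on the arms (24.1 to 25.5). Counted by peaks, chromosome 4 had Sd and Pol II on 31 of 109 Yki peaks (28.4%; 20.2 to 37.9). The Het sequences had 27 of 67 (40.3%; 28.5 to 53.0) and the arms 9.20%. Pol II peaks with neither Yki nor Sd were 69.9% of 196 on chromosome 4, 55.8% of 156 here and 36.4% on the arms. Neither trait was thus confined to the Het and unplaced sequences. Yki peaks at loci of different kinds ranked differently: those with both partners had a median percentile of 81.8, those that met Sd alone 78.8, those that met Pol II alone 45.7 and those that met no other peak 32.3. The arms had the same order, with 86.7, 76.1, 53.0 and 28.2.

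The loci with all lists are given by their highest Yki score. The first, on 3LHet from 2189525 to 2190994, combined a Yki peak of score 74.0 (percentile 97.7), one of Sd at 15.2 (98.0) and one of Pol II at 85.0 (80.6). All of its peaks ranked in the upper part of their lists. The second, on 3LHet from 1395751 to 1397139, paired a Yki score of 69.8 with an Sd score of 16.3 (percentile 99.5), the highest value in the Sd list and one that arm peaks share, but a Pol II score of 32.8 (52.2). The third, on 3LHet from 598745 to 601648, spanned 2904 bp, and its scores were 68.6, 13.7 and 37.6 for Yki, Sd and Pol II. Here too Yki and Sd ranked far above Pol II in their lists.

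The fourth, on 3LHet from 2409621 to 2410579, had 63.7, 15.2 and 66.2 in the same order. The fifth, from 605932 to 608109 on 3LHet, had 53.9, 13.5 and 62.6. On 3RHet the site from 1807456 to 1808727 had 53.2, 8.81 and 39.0, and the site from 1897583 to 1899372 had 51.3, 15.4 and 82.3. The Sd peak of the site from 1897583 ranks at percentile 98.2 of its list. On 2RHet the site from 390074 to 392614 had 52.8, 6.02 and 41.5, with Sd at percentile 39.7. On Uextra the site from 26834992 to 26835609 had 50.9, 7.51 and 56.9. The tenth, on 3LHet from 2397493 to 2401158, had a Yki score of 49.7 and an Sd score of 6.44 beside the highest Pol II score on these sequences, 126 (percentile 97.6). Of the 10 sites, 6 lay on 3LHet. The loci that followed had Yki scores between 17.5 and 49.2.

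Of the 10 highest Yki peaks, 4 carried Sd and Pol II, 4 Sd only and 2 neither. Those with both lie in the sites named at the head of the list above, all on 3LHet. The Yki peaks with Sd only were on 3RHet from 2378290 to 2378663 (score 67.9) and from 2107037 to 2107383 (55.7), on Uextra from 911888 to 912763 (65.2) and on 2RHet from 369893 to 370524 (64.9). The Yki peaks with neither were both on Uextra, from 21882899 to 21883398 (65.9) and from 499635 to 500342 (64.0). Just below these 10, a Yki peak on 3RHet from 2349232 to 2349751 (score 53.6, percentile 91.9), named after its value was seen, also had neither.

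Of the 10 highest Sd peaks, 8 carried Pol II. Of these, 6 lay on 3LHet, from 1396707 to 1397109 (score 16.3), from 2190575 to 2190953 and from 2409652 to 2409955 (15.2 each), from 601275 to 601589 (13.7), from 605979 to 606326 (13.5) and from 1562049 to 1562444 (11.5). The others with Pol II were on 3RHet from 1898978 to 1899329 (15.4) and on 2RHet from 2901547 to 2901903 (14.7). The pair without Pol II lay on Uextra from 9969673 to 9969958 (15.8) and on 3RHet from 2378308 to 2378628 (13.7).

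All 10 highest Pol II peaks carried Yki, and 4 of them Sd. Those with Sd were on 3LHet from 2397622 to 2401158 (score 126) and from 2189525 to 2190869 (85.0), and on 2RHet from 471018 to 471861 (105) and from 1334555 to 1336181 (89.6). Those without Sd were on Uextra from 22170534 to 22171085 (114), from 531934 to 532544 (103) and from 8143240 to 8143668 (88.9), on 2LHet from 167119 to 169216 (106), on XHet from 75016 to 75646 (91.5) and on 3RHet from 1705018 to 1706150 (88.2). All 3 of the sites on Uextra thus had Yki and no Sd peak, which does not set them apart from the wider shares. In the highest tercile of Pol II score, Yki was on 32 of 33 peaks here, 10 of 10 on U and Uextra and 92.2% on the arms. On U and Uextra, Sd was on only 6 of 69 Pol II peaks of any score (8.70%).

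The widest peaks were not always the highest. The widest Pol II peak, 3537 bp on 3LHet, is also the highest-scoring one. The next, 2832 bp on Uextra from 213646 to 216477, had a score of 24.6 and neither Yki nor Sd. It was followed by peaks of 2727 bp on 3LHet from 598745 to 601471, 2541 bp on 2RHet from 390074 to 392614 and 2419 bp on 2RHet from 2775715 to 2778133, which all carried Yki and Sd. The widest Yki peak, 1066 bp on 2RHet from 197906 to 198971, had a score of 31.2 and held 2 Sd peaks. Next were 957 bp on 3LHet from 1396183 to 1397139 with Sd and Pol II, 919 bp on Uextra from 439178 to 440096 and 883 bp on U from 7729921 to 7730803 with neither, and 876 bp on Uextra from 911888 to 912763 with Sd. The widest Sd peaks were 579 bp on 2LHet from 32789 to 33367 (score 6.0), 501 bp on 2RHet from 369984 to 370484 (8.04), 464 bp on 3LHet from 206986 to 207449 (3.39), 403 bp on 3LHet from 1396707 to 1397109 and 402 bp on 3RHet from 1808261 to 1808662 (8.81).

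Clusters were defined as runs of 3 or more peaks of any list with gaps of at most 5 kb. At this gap they held a smaller share of the peaks on heterochromatic or unplaced sequence than of those on the arms. There were 42 clusters holding 199 of the 338 peaks, or 58.9% (53.4 to 64.2), against 87.7% on the arms (87.3 to 88.1), where peaks are denser. The Het sequences had 28 clusters with 79.1% of their 191 peaks (72.6 to 84.6). U and Uextra had 14 clusters with 32.7% of their 147 peaks (25.2 to 40.9). The order of Het sequences and arms depended on the gap. With gaps of at most 1 kb the share was 68.6% on the Het sequences (61.5 to 75.1) and 62.9% on the arms (62.2 to 63.5). All lists met in 30 of the 42 clusters, Yki and Pol II in 9, Pol II alone in 2 and Yki and Sd in 1. On the arms all lists met in 1188 of 2824 clusters, Yki and Pol II in 1328 and Pol II alone in 13. All lists met in 24 of the 28 clusters on the Het sequences and in 6 of the 14 on U and Uextra. A locus with all lists has at least 3 peaks, so it lies in a cluster by definition. These counts thus partly restate the number of such loci. Clusters also differed in size, with a median of 4 peaks here and 6 on the arms. By sequence, 2RHet and 3LHet had 9 clusters each, 3RHet, U and Uextra 7 each, XHet 2 and 2LHet 1. On the Het sequences the next Pol II peak lay a median of 3.03 kb away, the next Yki peak 44.4 kb and the next Sd peak 77.7 kb, against 2.31, 3.67 and 22.3 kb on the arms.

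The cluster with the most peaks lay on 3LHet from 594233 to 608109, where 13.9 kb held 13 peaks, 7 of them Pol II, 3 Yki and 3 Sd. Each of its Yki peaks carried an Sd peak and met a Pol II peak, and 5 Pol II peaks at its start had scores of 4.52 to 13.8. The second lay on 3LHet from 1562014 to 1574472 and held 12 peaks, 6 of them Pol II, 4 Yki and 2 Sd. The third, on 2RHet from 2900512 to 2912400, had 2 Yki, 2 Sd and 5 Pol II peaks, 4 of the Pol II peaks at or below percentile 5.18. The fourth, on 2LHet from 31551 to 37191, held 2 Yki, 2 Sd and 3 Pol II peaks, with Pol II scores of 80.9, 70.3 and 25.9. The fifth, on 2RHet from 197906 to 204828, held the widest Yki peak, its 2 Sd peaks and 4 Pol II peaks. Its 7 peaks, like those of the fourth, tie with 4 other clusters, and the tie was broken by sequence order. Pol II peaks outnumbered Yki peaks in these clusters, but in only 20 of all 42; among the clusters tied at 7 peaks, those on 2RHet from 469978 to 477550 and from 3197911 to 3200945 held 3 Yki and 2 Pol II peaks each.

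**Figure D5:**
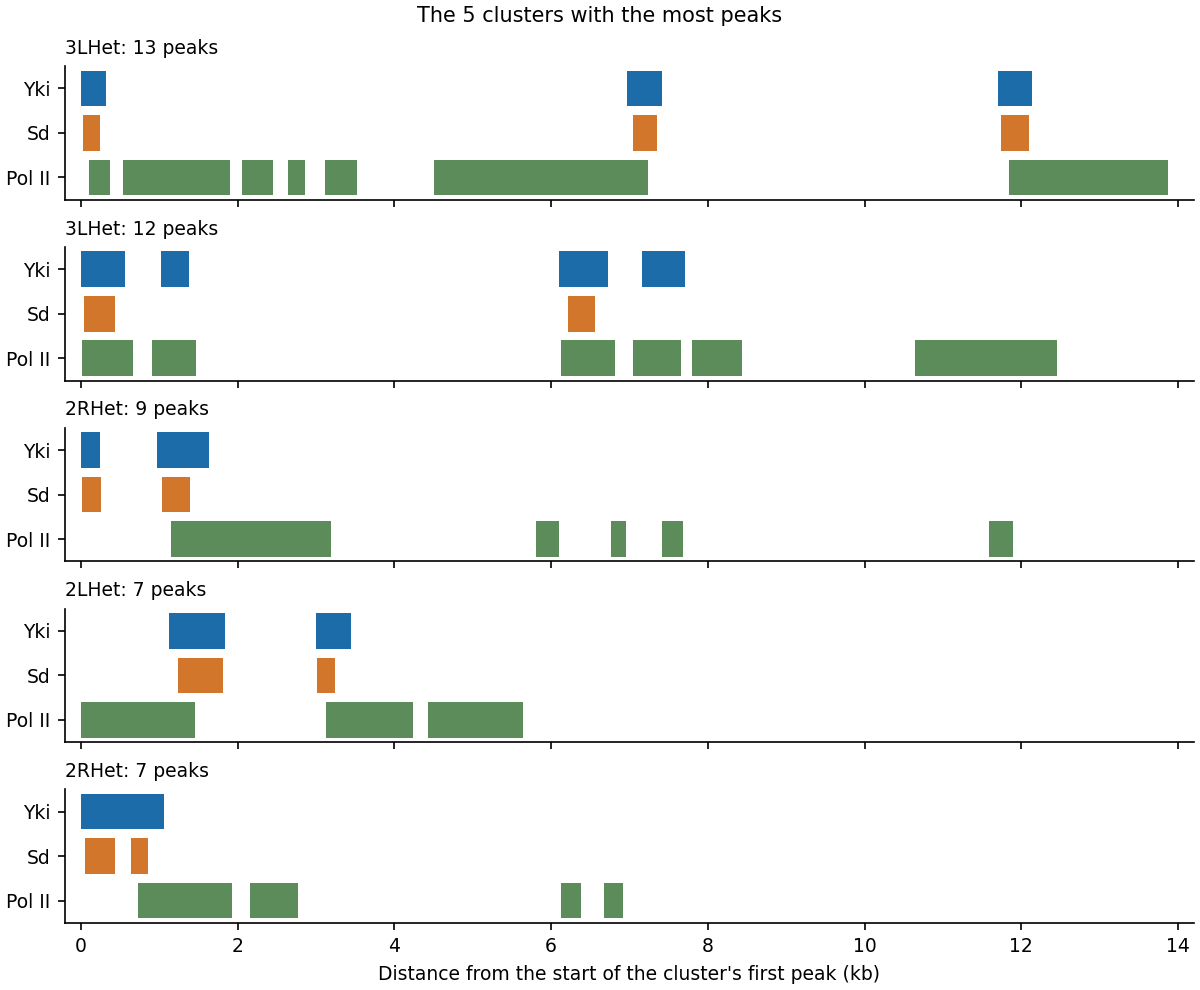
Positions of Yki, Sd and Pol II peaks (rows of bars, drawn to scale) in the 5 clusters with the most peaks, as distance in kb from the start of the first peak of each cluster. Sd peaks lie on Yki peaks, and the Pol II peak of 2727 bp in the first cluster ends under a Yki peak. Other Pol II peaks stand without Yki, both narrow ones and wide ones such as that of 1812 bp in the second cluster.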

How the data were processed

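ChIP-seq peak lists for 3 immunoprecipitations were analysed and the 2 inputs were not used here. The tools named per the submitters' processing notes are Bowtie, MACS2 and CASAVA 1.8.2, with build dm3; parameters, control and handling of multiply matching reads are not stated. The deposited value of each peak behaves as a −log10 p or q value; no header states this, and it rests on minima just above 3 (Yki), 2 (Sd) and 3 (Pol II). It depends on depth, which is unknown, and was ranked within a list only. Coordinates are 1-based dm3. No dm3 sequence or annotation was used here, so no gene is assigned to a peak.

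Peaks of different lists overlapped when they shared at least 1 bp. Shares carry exact Clopper-Pearson 95% intervals, differences of shares Newcombe intervals from Wilson limits, and medians exact order-statistic intervals. The gap between 2 differences combines their limits in quadrature. Deciles and terciles are of the whole list. Each antibody had 1 library, so there was no test. Functions were tested on simulated peaks with planted overlaps. Software was scipy 1.17.1, pandas 2.3.3, matplotlib 3.10.9 and numpy 2.4.6 under Python 3.11.15. Named regions are the 10 highest and 5 widest peaks of each list here, the 10 loci with all lists of highest Yki score and the 5 clusters with the most peaks; any other was chosen after its values were seen. Members, measures and named regions were chosen with earlier results of these data known. The alternatives are given in the closing section. The difference in Pol II overlap with and without Sd, the 1 kb distance, the weighting to deciles, the terciles and leaving out each sequence were added after seeing the data.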

Additional observations from a re-analysis of the deposited data

How the results depend on the processing

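Shares and medians were judged against their own 95% intervals over peaks, and counts against a change of 1.5 times. The difference in Pol II overlap with and without Sd was judged by its sign and by whether its whole interval kept that sign. Of 61 recomputed values 41 met these rules, but 9 of them could not move: an Sd score of at least 3 removed no peak here (lowest score 3.39), and YHet holds no Yki peak. On Het sequences alone, Sd was on 52.2% of Yki and 31.0% of Pol II peaks, and Pol II peaks had a median width of 560 bp, Yki peaks of 406 bp. Keeping the upper 50% by score, Yki was on 90.6% of Sd and 76.4% of Pol II peaks, Sd on 34.5% of Pol II peaks, loci with all lists numbered 19 and clusters 21, and median width was 448.5 bp for Yki and 942 bp for Pol II; fewer peaks enter by construction. With peaks reduced to 200 bp, Yki was on 91.8% of Sd and 22.4% of Pol II peaks, Pol II on 26.3% of Yki and 18.4% of Sd peaks, Sd on 5.77% of Pol II peaks, and loci with all lists numbered 8; shorter peaks meet less often by construction. Yki peaks with Sd minus those without differed in the share on Pol II by 12.0 points (-10.9 to 32.6) with the upper 50%, 18.3 without 3LHet and -12.9 with 200 bp peaks; the cause was not tested. Requiring 50% of the shorter peak or a Pol II peak within 1 kb left every recomputed value within these rules. For cluster gaps of 1 or 10 kb only the number of clusters was judged, and it was 41 at each. The share of peaks in clusters did change. It was 48.8% here at 1 kb (43.4 to 54.3), outside the interval at 5 kb, and 61.8% at 10 kb. The arms had 62.9% at 1 kb and 94.8% at 10 kb, and the Het sequences 68.6 and 84.3%. No paired analysis was possible because only 1 library was made per antibody. Depth is unknown, so a site without a peak is one where none was called.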

Other observations

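The second-largest cluster, on 3LHet, repeats part of its layout. At its start a Yki peak of 567 bp (score 32.8), a Pol II peak of 656 bp (65.7) and an Sd peak of 396 bp (11.5) overlap, followed 905 bp from the cluster's start by a Pol II peak of 560 bp (16.9) with a Yki peak of 363 bp (7.70). The same order recurs 6103 bp from the cluster's start, with a Yki peak of 620 bp (30.4), a Pol II peak of 686 bp (75.0) and an Sd peak of 342 bp (9.75), then a Pol II peak of 616 bp (20.2) with a Yki peak of 549 bp (13.2). Pol II peaks of 641 bp (11.2) and 1812 bp (17.3) then follow, with no counterpart after the first set. This pair was chosen after its values were seen, and the underlying sequences were not compared.

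Pol II peaks without Yki or Sd numbered 87 of 156 here, or 55.8% (47.6 to 63.7). The arms had 3622 of 9949, or 36.4% (35.5 to 37.4), and chromosome 4 alone 137 of 196, or 69.9% (63.0 to 76.2). Such peaks here had a median width of 333 bp and a median percentile of 21.8, beside 339 bp and 22.9 for those on the arms.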
